A study of Saccharomyces cerevisiae with 74 samples.

Results

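Small nucleolar RNAs (snoRNAs) are short, stable RNAs of the nucleolus, the compartment where ribosomes are made. The members described here are all 69 features listed under the snoRNA heading of every library's read table, out of 8695 S. cerevisiae features. Of these, 68 are snoRNAs, 41 of box C/D type and 27 of box H/ACA type, and the remaining member is NME1, the RNA of the RNase MRP enzyme. In budding yeast 17 of the members lie in 5 polycistronic clusters, transcribed as a single precursor and cut apart by nucleases. All 69 matched an entry of the RefSeq gene table by symbol. The entries of the box C/D members spanned 82 to 490 nt (median 99), against 161 to 1004 nt for the H/ACA members (median 203). These are lengths of the entries and need not equal those of the mature RNAs, which were not measured. The intron-encoded snoRNAs were not analysed here.

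Most box C/D snoRNAs pair with ribosomal RNA and guide the methylation of its riboses, and most H/ACA snoRNAs guide the conversion of uridine to pseudouridine. A few act instead in cutting the ribosomal precursor: U3 (encoded by the near-identical genes snR17a and snR17b), U14 (snR128), snR30 and snR10, whereas snR4 and snR45 assist the acetyltransferase Kre33. Yeast snoRNAs are mostly transcribed alone by RNA polymerase II and trimmed at their ends by nucleases, among them the 5′ exonuclease Rat1 and the nuclear exosome, and the mature molecules carry no poly(A) tail. Short tails are added by the TRAMP complex to precursors and to RNAs marked for decay. A poly(A)-selected library therefore does not report the abundance of mature snoRNAs directly, and which forms gave the reads was not tested.

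RNA was measured in haploid S. cerevisiae by CRAC and by poly(A)-selected RNA-seq. CRAC (UV crosslinking and analysis of cDNA) sequenced RNA crosslinked to a tagged protein in 52 libraries, 21 of the RNA helicase eIF4A, 18 of its cofactor eIF4B and 13 of the helicase Ded1, beside 4 libraries of untagged cells. Poly(A)-selected RNA-seq was made from 18 libraries of wild-type cells and of cells lacking Ski2, a helicase that feeds RNA to the cytoplasmic exosome, or Xrn1, the main cytoplasmic 5′ exonuclease. RNA of the distantly related yeast S. pombe was added to each RNA-seq sample as a spike-in. The tag was on Tif1 for eIF4A, while the second eIF4A gene, TIF2, was left untagged, on Tif3 for eIF4B and on Ded1 itself, so each CRAC strain reports on a single tagged protein.

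Cells were moved by filtration to medium with glycerol and ethanol in place of glucose (GE) for 30 s or 16 min, to 42°C for 16 min, to 42°C with the translation inhibitor cycloheximide (42C CHX) for 16 min, or to unchanged medium (mock, 16 min), and control cells were harvested without a shift. All groups grew beforehand in synthetic medium lacking tryptophan with glucose. In CRAC, eIF4A had 3 libraries at GE 30 s, 4 at GE 16 min, 4 at 42C, 4 mock and 6 control. The numbers for eIF4B were 2 at GE 30 s, 3 at GE 16 min, 2 at 42C CHX, 4 at 42C, 3 mock and 4 control, and those for Ded1 were 2 at GE 30 s, 3 at GE 16 min, 3 at 42C, 2 mock and 3 control. In RNA-seq, wild type (wt) had 2 libraries at GE 16 min, 2 at 42C CHX, 3 at 42C and 3 control, and the Xrn1 and Ski2 deletions (deltaXrn1, deltaSki2) had 2 at 42C and 2 control each. CRAC libraries are named below by their number and RNA-seq libraries by their letter. RNA-seq libraries A to F were submitted in an earlier round and H to S in a later one. The wt GE libraries were only in the earlier round, and both deletions and 42C CHX only in the later. Groups of wt control and wt 42C had libraries in both, so strain and round are partly confounded. The labels do not say that CRAC libraries of a group came from separate cultures, so the p-values measure the spread between these libraries, which may be technical.

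The RNA-seq libraries held 26399000 to 46538567 S. cerevisiae reads and 531145 to 990246 spike-in reads, and the snoRNAs took 5338 to 24917 reads, or 0.0165 to 0.0867% of each library. The level of an RNA is given below as its reads per 1000000 spike-in reads. The paper spiked S. pombe RNA into the RNA samples at a set concentration, so a level is relative to the total RNA of its sample. A change in that RNA per cell and a change in total RNA per cell cannot be told apart. XRN1 itself read 77.5 to 380.3 in the 4 deltaXrn1 libraries, against 7734 to 23314 in the other 14, and SKI2 read 6.14 to 20.4 in the 4 deltaSki2 libraries, against 2292 to 7593 in the others, as labelled. Library D (wt GE) stood apart in rRNA, which took 15.4% of its reads, against 0.455 to 1.96% in the other 17 libraries. The tagged CRAC libraries held 183689 to 4385132 counted reads, and the untagged ones only 347, 5798, 8140 and 46692.

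At the level of the whole family, the summed snoRNA level was higher under glucose withdrawal and under heat with cycloheximide, and it was higher in the deltaXrn1 control. It read 21862 and 33729 at wt GE and 10802, 11367 and 9783 in wt control, so that the groups did not overlap. At 42C the wt libraries read 13409.9, 11038 and 15528, a range that overlaps the controls, and with cycloheximide they read 43799 and 34872, above every other library in the set. In deltaXrn1 the order was the other way round from wt, with 7222 and 8629 at 42C and 21859.5 and 18806 in control. In deltaSki2 the levels were 15492 and 12828 at 42C and 9117 and 9288 in control. These sums carry no test, and the largest single member, snR86 or snR30, gave between 11.1 and 23.1% of them.

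**Figure D1:**
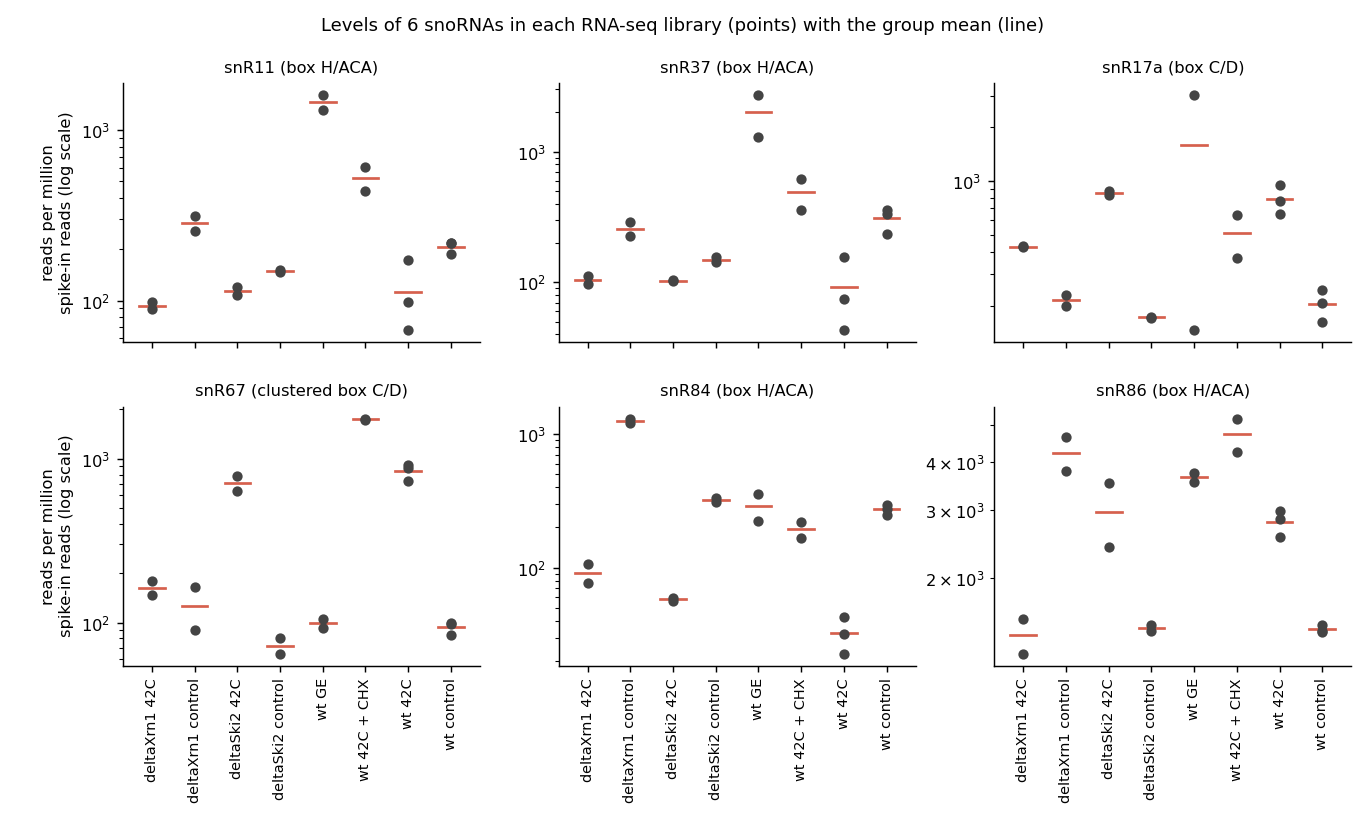
Level of 6 members (snR11, snR37, snR17a, snR67, snR84 and snR86) in each of the 18 poly(A) RNA-seq libraries, on a log axis in reads per 1000000 spike-in reads, with a point for each library and a line at the group mean. At wt GE both libraries stand high for snR11 (1313 and 1609, against 186 to 218 in wt control), whereas those of snR17a lie far apart (145 and 3024), and snR67 is high at 42C in wt and deltaSki2 but not in deltaXrn1.

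In the wt control the members with the highest levels, not corrected for length, were the H/ACA RNAs snR86 (1443, 1501 and 1453), snR33 (561, 639 and 591), snR30 (581, 554 and 530.3), snR31 (359.5, 419 and 394), snR83 (373, 414 and 355), snR37 (357, 334 and 233) and snR84 (247, 276 and 295). The C/D members among the first 10 were snR63 (429, 437 and 426), snR4 (328, 397 and 388) and snR70 (358, 364 and 365). snR86 is by far the longest member. Per unit of RefSeq length the first 3 were snR33, snR41 and snR51, of which snR41 and snR51 share a cluster with snR70. The U3 genes read 208, 162 and 245 for snR17a and 81.8, 46.3 and 71.2 for snR17b, and reads of the near-identical copies were placed at random by the aligner, which makes the split between them uncertain. 65 of the 69 members had a read in all 18 libraries, and 68 passed the filter on low counts, the C/D member snR58 being the exception.

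Glucose withdrawal (wt GE 16 min over wt control) separated the classes. Among the H/ACA members 23 of 27 were called higher and none lower, with a median log2 difference of 1.85, whereas the 40 C/D members tested divided into 9 higher and 9 lower with a median of -0.22. Of all 68 members tested, 33 were called higher and 9 lower (an adjusted p below 0.05 in edgeR's quasi-likelihood test, with Benjamini-Hochberg adjustment over all 8102 features). The background was 22.5% of all features called higher and 33.2% called lower, and the median was -0.14 over all features and 0.57 over the members. Values after ± are standard errors of the log2 difference.

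The 4 members with the smallest p among those that rose were mostly H/ACA RNAs. The guide snR11 had levels of 1313 and 1609 at GE, against 218, 217 and 186 in control (log2 difference 2.82 ± 0.25, edgeR adjusted p = 7.82e-14). snR37, which guides pseudouridylation in the catalytic centre of the large subunit, had 1308 and 2723, against 357, 334 and 233 (log2 difference 2.70 ± 0.29, edgeR adjusted p = 2.02e-11). snR13, a C/D guide of large-subunit methylation, had 412 and 361, against 72.7, 82.8 and 47.0 (log2 difference 2.51 ± 0.28, edgeR adjusted p = 1.10e-10). In each of these the lowest GE library lay several times above the highest control. snR10, the H/ACA RNA of pre-rRNA cleavage, had 816 and 1108 at GE, against 220.1, 232 and 221 (log2 difference 2.10 ± 0.25, edgeR adjusted p = 4.37e-10), and snR30, the essential H/ACA RNA of 18S rRNA formation, had 2643 and 3724, against 581, 554 and 530.3 (log2 difference 2.52 ± 0.32, edgeR adjusted p = 1.95e-09). snR10 overlaps the open reading frame YGL088W on the same strand over 216 nt, so their reads could be shared.

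The members that fell were C/D guides of methylation, and those with the smallest p were all guides of the large subunit. snR61 had 52.2 and 29.5 at GE, against 139, 187 and 66.7 in control (log2 difference -1.66 ± 0.35, edgeR adjusted p = 6.23e-05). snR72 had 28.6 and 16.2, against 68.7, 79.4 and 36.4 (log2 difference -1.43 ± 0.39, edgeR adjusted p = 0.00147), and snR68 had 92.0 and 78.1, against 125, 179 and 209 (log2 difference -0.99 ± 0.29, edgeR adjusted p = 0.00271). For snR76 the levels were 95.7 and 67.8, against 128, 180.4 and 153 (log2 difference -0.90 ± 0.28, edgeR adjusted p = 0.00538). The groups did not overlap in these 4 members, although both snR72 and snR76 lost the call when library D was left out. snR61, snR72 and snR76 lie in clusters. Of the 17 clustered members 2 were called higher and 5 lower, against 22.5% of all features higher and 33.2% lower. The 2 called higher were snR128 and snR190, and neither was called higher without library D.

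Several rises rested on library D alone. U3 snR17a read 145 and 3024 in C and D, against 208, 162 and 245 in control (log2 difference 2.94 ± 0.42, edgeR adjusted p = 3.53e-08), and without D the difference was -0.50. snR17b read 59.7 and 663, against 81.8, 46.3 and 71.2 (log2 difference 2.41 ± 0.41, edgeR adjusted p = 1.41e-06; -0.17 without D). snR190, a C/D RNA paired with U14 in a cluster, read 48.5 and 1506, against 119, 108 and 112 (log2 difference 2.77 ± 0.46, edgeR adjusted p = 1.18e-06), and was lower by the fit without D (-1.22). Thus library C was within or below the control range where D was high. U14 snR128 read 201 and 377, against 165, 220.1 and 115 (log2 difference 0.79 ± 0.29, edgeR adjusted p = 0.0172), and snR45 read 159 and 404, against 90.9, 81.1 and 53.0 (log2 difference 1.89 ± 0.33, edgeR adjusted p = 2.55e-06), with C above every control for snR45 but not for snR128, whose call was lost without library D or H. snR4, the partner of snR45, read 679 and 1046, against 328, 397 and 388 (log2 difference 1.22 ± 0.23, edgeR adjusted p = 8.71e-06). Beside these, the RNA of the signal recognition particle, SCR1, which has no poly(A) tail, read 1114 and 12438 in C and D, and the spliceosomal snRNAs read 727 and 6179, whereas tRNA, which has no tail either, read 931 and 728, the value in D being the lowest of the 18 libraries. The part of this in the snoRNA rises was not tested beyond the counts without D. Those counts were 21 H/ACA members higher and none lower, and 4 C/D members higher and 4 lower. Without library C they were 24 and none, and 9 and 6. A total of 21 H/ACA members were called higher in all 3 fits, against 4 C/D members higher and 2 lower. The shares of all features called in the fits without C or D are not given here. These counts therefore describe the members only and are not set against a background.

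Longer members had larger differences at GE. Spearman's rho between RefSeq length and the log2 difference was 0.71 over the 68 members, 0.41 over the 40 C/D members and 0.14 over the 27 H/ACA members. The points share their libraries and are not independent, and since H/ACA members are longer the figure over all members cannot be told apart from the difference between classes.

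mRNAs of the proteins that bind and mature snoRNAs were mostly lower at GE. Of 18 mRNAs of snoRNP proteins, 16 fell and none rose (median log2 difference -1.45), and of 18 mRNAs of snoRNA maturation factors 13 fell and 2 rose (-0.99), beside the 33.2% of all features called lower. NOP1, the C/D methyltransferase fibrillarin, had 5524 and 3839 at GE, against 28473, 29481 and 29617 in control (log2 difference -2.64 ± 0.22, edgeR adjusted p = 9.92e-15). SNU13, the protein that binds the C/D motif, had 2952 and 2159, against 12242, 13048 and 11211 (log2 difference -2.25 ± 0.20, edgeR adjusted p = 5.98e-14). Among the maturation factors, AIR1 and TRF5, subunits of TRAMP, fell. AIR1 had 334 and 302, against 2041, 2077 and 2265 (log2 difference -2.74 ± 0.20, edgeR adjusted p = 1.44e-16), and TRF5 had 599 and 447, against 2165, 2340.2 and 2219.5 (log2 difference -2.10 ± 0.20, edgeR adjusted p = 1.19e-12). The 2 that rose were DBR1, which opens intron lariats (log2 difference 0.64 ± 0.17, edgeR adjusted p = 0.00151), and AIR2, the second Air protein (log2 difference 0.41 ± 0.18, edgeR adjusted p = 0.0432).

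**Figure D2:**
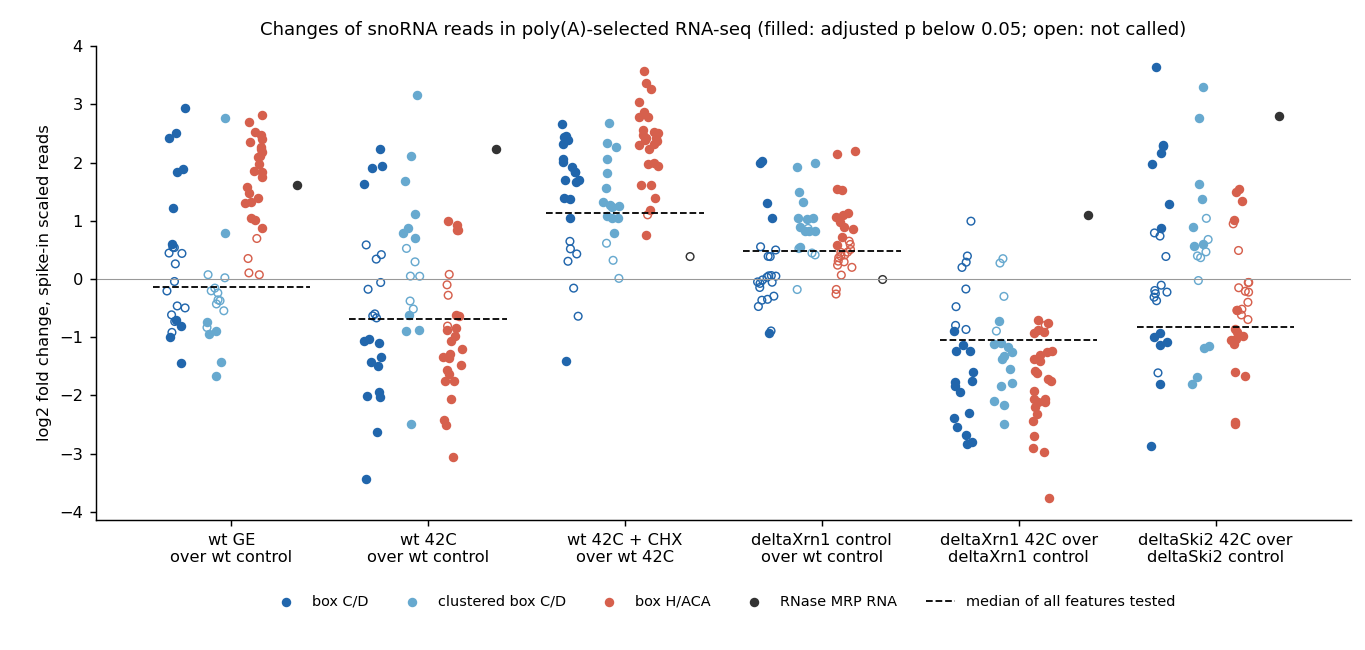
Log2 difference of each member tested in 6 RNA-seq comparisons, with single box C/D, clustered box C/D and box H/ACA members and the RNase MRP RNA NME1 in separate columns. Each point is a member, filled where the edgeR adjusted p was below 0.05 and open where not, and the dashed line is the median of all features tested. At GE the H/ACA members lie mostly above 0 (median 1.85) and the C/D members on both sides of it (median -0.22).

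At heat shock (wt 42C over wt control) the snoRNAs as a family moved much like all features, with a few members standing far above their control. Of the 68 members tested, 16 were called higher and 34 lower, against a background of 18.6% of features higher and 57.9% lower, so that both counts are near the background. The median log2 difference was -0.64 over the members and -0.69 over all features. Of the C/D members 11 rose and 15 fell (median -0.28), and of the H/ACA members 4 rose and 19 fell (-1.07). When libraries were scaled by TMM to S. cerevisiae reads, which sets the median of all features at 0.13, 25 members were called higher and 14 lower, with 19 and 7 for C/D and 5 and 7 for H/ACA, against 41.7% of all features higher and 34.7% lower. The H/ACA median was -0.27 under that scaling.

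The largest rise was that of snR67, a C/D guide of large-subunit methylation. Its levels were 914, 881 and 727 at 42C, against 100.0, 97.6 and 83.3 in control (log2 difference 3.16 ± 0.22, edgeR adjusted p = 2.33e-18), a gap wider than any spread within a group. snR53, which shares a precursor with snR67, read 43.9, 42.9 and 66.5, against 10.1, 11.6 and 13.6 (log2 difference 2.12 ± 0.36, edgeR adjusted p = 8.68e-07). The RNase MRP RNA NME1 read 870.0, 728 and 869, against 189, 152 and 179 (log2 difference 2.24 ± 0.22, edgeR adjusted p = 3.22e-13). Both the snR67 cluster and NME1 thus had no overlap between groups. snR40, a guide of both subunits, read 217, 191 and 301, against 75.7, 74.5 and 37.9 (log2 difference 1.90 ± 0.28, edgeR adjusted p = 3.10e-08). snR66, a guide of the large subunit, read 405, 344 and 353, against 113, 147 and 95.4 (log2 difference 1.64 ± 0.23, edgeR adjusted p = 1.54e-08). Under TMM these 5 members were higher as well.

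By contrast, the members with the smallest p among those that fell were guides at low levels at 42C. The H/ACA guide snR84 had 32.0, 22.7 and 43.0 at 42C, against 247, 276 and 295 in control (log2 difference -3.06 ± 0.26, edgeR adjusted p = 2.39e-15). snR87, a C/D guide of the small subunit, had 10.7, 10.1 and 16.9, against 78.8, 89.4 and 66.7 (log2 difference -2.63 ± 0.32, edgeR adjusted p = 2.42e-10), and snR8, an H/ACA guide of the large subunit, had 10.7, 18.9 and 15.6, against 92.9, 96.0 and 54.5 (log2 difference -2.43 ± 0.33, edgeR adjusted p = 4.08e-09). snR49, an H/ACA guide of both subunits, had 39.1, 34.1 and 39.1, against 162, 214 and 97.0 (log2 difference -2.06 ± 0.28, edgeR adjusted p = 4.31e-09). No control library of these members came down to the level of any heat-shocked library, and they were lower under TMM too. Of these 4, snR8 and snR49 had risen at GE (2.19 ± 0.28 (edgeR adjusted p = 5.03e-09) and 1.85 ± 0.27 (edgeR adjusted p = 6.83e-08)).

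Within the clusters the values at 42C were alike in some and spread in others. In the snR41-snR70-snR51 cluster all 3 rose, by 0.70 to 0.88, with snR41 at 455, 372 and 449.7, against 247, 281 and 212 (log2 difference 0.79 ± 0.21, edgeR adjusted p = 0.000673). snR57 and snR55, both guides of the small subunit, rose as well (1.12 ± 0.23 (edgeR adjusted p = 1.72e-05) and 1.68 ± 0.26 (edgeR adjusted p = 8.28e-08)), while the third product of their precursor, snR61, had a difference of -0.38 ± 0.28 (edgeR adjusted p = 0.213) and was not called. In the largest cluster, snR72 to snR78, the differences spanned -2.49 to 0.53, and 3 of 7 were called lower and none higher, which turns round under TMM to 3 higher and 1 lower. Of all features 57.9% were called lower and 18.6% higher, and under TMM 34.7% lower and 41.7% higher. snR86 rose (2991, 2551 and 2840.4 at 42C, against 1443, 1501 and 1453; log2 difference 0.93 ± 0.16, edgeR adjusted p = 6.63e-07), and so did snR83 (709, 484 and 1081, against 373, 414 and 355; log2 difference 1.00 ± 0.21, edgeR adjusted p = 2.45e-05).

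Among the RNAs of pre-rRNA cleavage, snR17a was higher at 42C (949, 771 and 650.5, against 208, 162 and 245 in control; log2 difference 1.94 ± 0.38, edgeR adjusted p = 1.14e-05) and snR17b was not called (log2 difference 0.59 ± 0.39, edgeR adjusted p = 0.163). snR17a overlaps the reading frame IRC13 on the same strand over 78 nt. snR10 fell (83.0, 79.5 and 129, against 220.1, 232 and 221; log2 difference -1.21 ± 0.24, edgeR adjusted p = 1.46e-05), and so did snR128 (77.0, 64.3 and 126, against 165, 220.1 and 115; log2 difference -0.90 ± 0.28, edgeR adjusted p = 0.00305), but under TMM both lost the call. snR4 fell to 127, 126 and 188, against 328, 397 and 388 (log2 difference -1.34 ± 0.22, edgeR adjusted p = 2.74e-07). snR30 read 529, 325 and 2155, against 581, 554 and 530.3, and its call (log2 difference 0.85 ± 0.29, edgeR adjusted p = 0.00698) rested on library I, without which the difference was -0.38. snR45 and snR190 were not called (-0.60 ± 0.33 (edgeR adjusted p = 0.0895) and 0.05 ± 0.44 (edgeR adjusted p = 0.924)). Beside these, SCR1 read 8097 to 9619 at 42C, against 606 to 1391 in control, and the part of such RNAs in the snoRNA values was not tested.

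All 18 snoRNP protein mRNAs fell at 42C (median -2.93), and so did 16 of the 18 maturation mRNAs (-2.45), beside the 57.9% of all features called lower. NOP58, a core protein of C/D particles, had 1742, 1412 and 1224, against 23821, 25423 and 23574 in control (log2 difference -4.06 ± 0.19, edgeR adjusted p = 3.33e-25). KRE33, the acetyltransferase that works with snR4 and snR45, had 667, 597 and 614, against 10562, 10670.0 and 9426 (log2 difference -4.03 ± 0.17, edgeR adjusted p = 1.15e-26). MTR4, the helicase of TRAMP, had 870.0, 707 and 869, against 13408, 14707 and 12550.5 (log2 difference -4.05 ± 0.18, edgeR adjusted p = 1.74e-26), and AIR1 had 196, 168 and 202, against 2041, 2077 and 2265 (log2 difference -3.50 ± 0.18, edgeR adjusted p = 8.74e-24). None of the 36 mRNAs rose.

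Cycloheximide added during the heat shock (wt 42C CHX over wt 42C) went with higher levels of nearly every member. Of the 68 tested, 56 were called higher and 1 lower (median 1.84), against 79.4% of all features called higher and 2.43% lower (median 1.13), so the count is close to the background. By class, 26 of 27 H/ACA members rose (median 2.38), against 30 of 40 C/D members, of which 1 fell (1.38). TMM scaling, which sets the median of all features at 0.05, left 31 members higher and 4 lower, with 19 of these 31 H/ACA and 12 C/D, against 30.4% of all features higher and 30.6% lower.

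snR46, an H/ACA guide of the large subunit, had 631 and 571 at 42C CHX, against 49.8, 40.4 and 97.8 at 42C (log2 difference 3.26 ± 0.28, edgeR adjusted p = 8.62e-15). snR10 had 954 and 639, against 83.0, 79.5 and 129 (log2 difference 3.04 ± 0.26, edgeR adjusted p = 1.29e-14), and snR31, an H/ACA guide of the small subunit, had 1171 and 1235, against 205, 216 and 232 (log2 difference 2.47 ± 0.21, edgeR adjusted p = 1.60e-14). All 3 were above the wt control range with cycloheximide and below it at 42C alone. snR4 had 916 and 942, against 127, 126 and 188 (log2 difference 2.66 ± 0.24, edgeR adjusted p = 3.28e-14), and snR30 had 7629 and 6229, against 529, 325 and 2155 (log2 difference 2.79 ± 0.31, edgeR adjusted p = 3.88e-11). Only snR52, a C/D guide of both subunits, was called lower, at 40.4 and 26.3, against 108, 66.9 and 92.6 (log2 difference -1.41 ± 0.38, edgeR adjusted p = 0.000724), and this member had risen at 42C (2.24 ± 0.34 (edgeR adjusted p = 6.48e-08)). snR128, snR190 and snR45 rose too (2.26 ± 0.30 (edgeR adjusted p = 2.13e-09), 2.34 ± 0.46 (edgeR adjusted p = 1.05e-05) and 1.39 ± 0.35 (edgeR adjusted p = 0.000409)), although snR190 and snR45 lost the call under TMM. The 2 U3 genes and NME1 were not called, with snR17a at -0.64 ± 0.42 (edgeR adjusted p = 0.15) and NME1 at 0.39 ± 0.23 (edgeR adjusted p = 0.113). All 18 snoRNP protein mRNAs and 16 of the 18 maturation mRNAs rose, near the 79.4% of all features called higher.

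Loss of Xrn1 without stress (deltaXrn1 control over wt control) went with higher levels of 28 members and a lower level of 1, against a background of 47.1% higher and 9.31% lower. The median was 0.50 over members and 0.48 over all features. TMM scaling left 11 higher and 3 lower, against 30.2% of all features higher and 34.8% lower, and without deltaXrn1 library M 19 were called higher. snR84 read 1301 and 1197 in deltaXrn1, against 247, 276 and 295 in wt (log2 difference 2.20 ± 0.24, edgeR adjusted p = 3.35e-11). snR86 read 4664 and 3784, against 1443, 1501 and 1453 (log2 difference 1.53 ± 0.17, edgeR adjusted p = 9.17e-11), and snR42, an H/ACA guide of the large subunit, read 502 and 375, against 110.1, 108 and 78.8 (log2 difference 2.14 ± 0.27, edgeR adjusted p = 1.74e-09). In these 3 members each deltaXrn1 library lay above the highest wt library, and the calls held under TMM. snR68 read 698 and 655, against 125, 179 and 209 (log2 difference 1.99 ± 0.26, edgeR adjusted p = 3.58e-09). The member called lower was snR56, a C/D guide of the small subunit, at 28.3 and 26.4, against 63.6, 62.9 and 28.8 (log2 difference -0.93 ± 0.39, edgeR adjusted p = 0.0382), a call lost without library A, B, M or R. The low wt value, 28.8, was that of library H, which shares its submission round with the deltaXrn1 libraries.

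Of the 17 clustered members 12 were called higher in deltaXrn1, with 6 of the 7 members of snR72 to snR78 among them, against 4 of the 23 other C/D members. Under TMM 4 of those 7 members were called higher and no other clustered member was. Of all features 47.1% were called higher, and 30.2% under TMM. Of the processing and acetylation RNAs, snR30 and snR4 rose (1.13 ± 0.32 (edgeR adjusted p = 0.002) and 1.05 ± 0.23 (edgeR adjusted p = 9.81e-05)), and snR17a, snR17b, snR128, snR190, snR10 and snR45 were not called, with differences of -0.47 to 0.52. In the Ski2 deletion (deltaSki2 control over wt control) no member was called, where 0.123% of all features were, while 17 members had an unadjusted p below 0.05 and DESeq2 called none. Leaving out wt library H gave 3 lower, and leaving out deltaSki2 library K gave 1 lower.

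Heat shock was then compared within each strain. In deltaXrn1 (42C over its own control) 54 of 68 members were called lower and 1 higher, with a median of -1.39, against 66.9% of all features lower and 11.5% higher (median -1.04). In deltaSki2 (42C over its own control) 19 were called higher and 21 lower, against 16.7% higher and 57.9% lower. Since wt, deltaXrn1 and deltaSki2 each had their own control, calls can be set side by side. Of the 16 members called higher in wt, all 16 were called higher in deltaSki2, but 1 was higher, 8 were lower and 7 were not called in deltaXrn1. Of the 34 called lower in wt, all 34 were lower in deltaXrn1, and 20 were lower and 1 higher in deltaSki2. TMM scaling gave 5 higher and 24 lower in deltaXrn1, against 30.6% of all features higher and 35.8% lower, and 29 higher and 3 lower in deltaSki2, against 38.1 and 34.2%. Of its 25 members higher in wt, 22 were higher in deltaSki2, against 5 higher, 2 lower and 18 not called in deltaXrn1. The same overlaps between strains over all features are not given here. The side-by-side counts therefore describe the members only and are not set against a background.

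The test of the difference itself, the deltaXrn1 heat response minus the wt heat response, called 29 members lower and none higher (median -0.93), against 17.4% of all features lower and 9.47% higher (median -0.17). The 29 were 18 C/D and 10 H/ACA members and NME1, and 13 of the 17 clustered members were among them, against 5 of the 23 other C/D members tested. TMM scaling gave 27 lower, against 20.2% of all features lower. The same test for deltaSki2 called no member and 0% of all features, while 9 members had an unadjusted p below 0.05. Without wt library I it called 5 members higher.

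snR86 had 1265 and 1562 at 42C and 4664 and 3784 in control in deltaXrn1, against 2991, 2551 and 2840.4 at 42C and 1443, 1501 and 1453 in control in wt (difference of the heat responses -2.51 ± 0.25 (edgeR adjusted p = 2.78e-10)). Thus snR86 fell at 42C without Xrn1 and rose with it. snR67 had 148 and 179 at 42C and 164 and 90.4 in control in deltaXrn1 (log2 difference 0.35 ± 0.27, edgeR adjusted p = 0.235), where it was not called, and the difference from the wt response was -2.81 ± 0.35 (edgeR adjusted p = 2.37e-08). snR51, a guide of both subunits, had 187 and 253 at 42C and 513 and 439 in control (-1.99 ± 0.33 (edgeR adjusted p = 6.48e-06)), and snR70, a guide of the small subunit, had 259 and 343 at 42C and 642 and 649.5 in control (-1.80 ± 0.31 (edgeR adjusted p = 1.13e-05)). All 3 members of the snR41-snR70-snR51 cluster were called lower in deltaXrn1 at 42C, with differences of -1.16 to -1.10 from their own control. Under TMM these falls were -0.23 to -0.18 and not called, while the differences from the wt response were -1.89 to -1.70 and called. Of the processing and acetylation RNAs, snR30 and snR4 had a called difference (-1.76 ± 0.45 (edgeR adjusted p = 0.0026) and -1.46 ± 0.34 (edgeR adjusted p = 0.00092)), the one for snR30 being lost under TMM and without wt library I.

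In deltaXrn1 the members with the smallest p at 42C were snR84 (77.5 and 106 at 42C, against 1301 and 1197 in control; log2 difference -3.77 ± 0.30, edgeR adjusted p = 5.25e-16), snR4 (101 and 119.6, against 868 and 665; log2 difference -2.80 ± 0.28, edgeR adjusted p = 6.81e-13), snR33 (139 and 155, against 741 and 723; log2 difference -2.32 ± 0.24, edgeR adjusted p = 3.80e-12) and snR68 (103 and 128, against 698 and 655; log2 difference -2.55 ± 0.30, edgeR adjusted p = 1.57e-10). NME1 was the only member called higher in deltaXrn1, at 309 and 437, against 190.3 and 154 (log2 difference 1.11 ± 0.27, edgeR adjusted p = 0.000279). snR10 and snR128 were lower there (-2.12 ± 0.31 (edgeR adjusted p = 2.55e-08) and -1.25 ± 0.34 (edgeR adjusted p = 0.000772)), the call of snR128 being lost under TMM, and snR30 was lower (-0.91 ± 0.35 (edgeR adjusted p = 0.017)) except under TMM, where it was 0.026, and lost the call without library M, N or S.

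In deltaSki2, snR67 read 789.7 and 638 at 42C, against 80.1 and 64.4 in control (log2 difference 3.30 ± 0.29, edgeR adjusted p = 5.13e-15), and NME1 read 884 and 801, against 120.1 and 122 (log2 difference 2.80 ± 0.28, edgeR adjusted p = 9.49e-13). snR66 and snR52 rose by 2.29 ± 0.30 (edgeR adjusted p = 2.41e-09) and 3.64 ± 0.51 (edgeR adjusted p = 1.26e-08). These 4 had risen in wt as well. The falls with the smallest p were those of snR84 (59.6 and 56.5, against 309 and 332; log2 difference -2.46 ± 0.30, edgeR adjusted p = 3.42e-10), snR75, a C/D guide of the large subunit (-1.80 ± 0.37 (edgeR adjusted p = 2.09e-05)), snR49 (-1.66 ± 0.34 (edgeR adjusted p = 2.70e-05)) and snR33 (-1.11 ± 0.23 (edgeR adjusted p = 2.81e-05)), of which the last pair lost the call under TMM. snR17a and snR30 rose (2.31 ± 0.48 (edgeR adjusted p = 3.11e-05) and 1.55 ± 0.36 (edgeR adjusted p = 0.000142)), and snR10 and snR4 fell (-1.02 ± 0.30 (edgeR adjusted p = 0.00223) and -1.13 ± 0.27 (edgeR adjusted p = 0.000161)), the falls being lost under TMM and that of snR10 also without library Q.

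**Figure D3:**
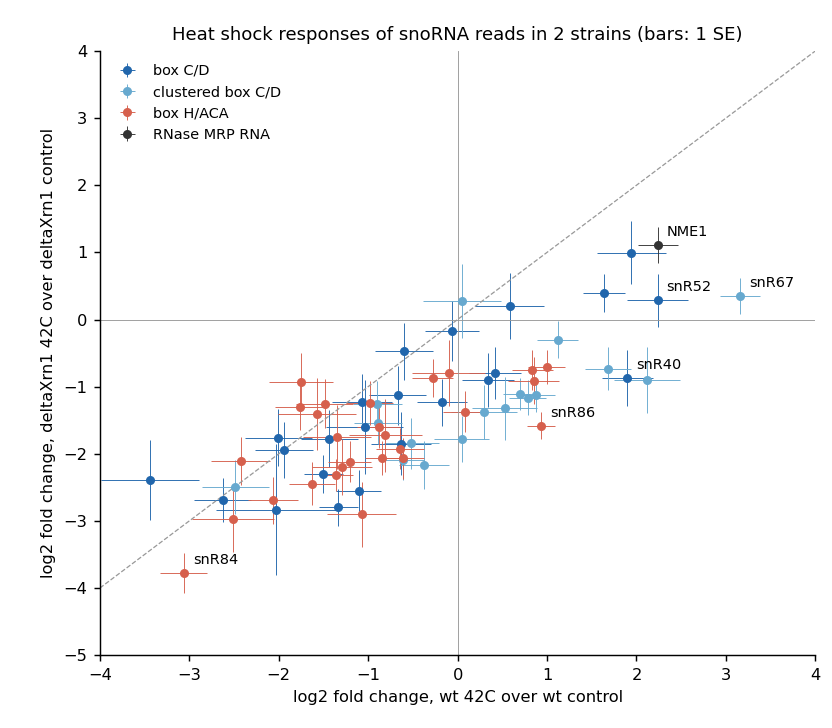
Log2 difference at 42C over the strain's own control for each of the 68 members tested, with deltaXrn1 on the vertical and wt on the horizontal axis, coloured by class, with bars of 1 standard error and a dashed line where both are equal. Most points lie below that line, snR67 (0.35 in deltaXrn1, against 3.16 in wt) farthest to the right.

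With both strains at 42C (deltaXrn1 42C over wt 42C) 6 members were called higher and 19 lower, against 38.6% of all features higher and 11.4% lower. TMM gave 2 higher and 28 lower, against 25.9% of all features higher and 32.8% lower, and leaving out deltaXrn1 library N gave 4 higher and 12 lower. The falls with the smallest p were those of snR40 (26.9 and 26.6 in deltaXrn1, against 217, 191 and 301 in wt; log2 difference -3.13 ± 0.36, edgeR adjusted p = 2.27e-10) and snR67 (log2 difference -2.37 ± 0.25, edgeR adjusted p = 1.72e-11), with snR41 (-1.41 ± 0.24 (edgeR adjusted p = 3.24e-06)) and snR86 (-0.98 ± 0.18 (edgeR adjusted p = 8.64e-06)). snR87 (46.0 and 53.2, against 10.7, 10.1 and 16.9; log2 difference 1.97 ± 0.36, edgeR adjusted p = 8.02e-06) and snR84 (1.49 ± 0.29 (edgeR adjusted p = 2.92e-05)) had the smallest p among the rises, followed by snR42 (0.86 ± 0.29 (edgeR adjusted p = 0.011)) and snR75 (0.83 ± 0.30 (edgeR adjusted p = 0.0165)), of which snR42 lost the call under TMM and without library N, and snR75 under TMM and without library S. All 8 members of the snR41-snR70-snR51, snR67-snR53 and snR57-snR55-snR61 clusters were called lower, also under TMM. Between deltaSki2 at 42C and wt at 42C no member was called, against 0.667% of all features, with 8 members at an unadjusted p below 0.05. Without wt library I, 8 were called higher and 1 lower.

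In CRAC the value of a member is its reads per 1000000 counted S. cerevisiae reads (RPM). The snoRNAs together took 0.462 to 4.05% of the counted reads of the tagged libraries, and in the untagged libraries 2.02% (95% exact binomial interval 0.815 to 4.11%, 7 of 347 reads), 5.44%, 3.49% and 1.29%. Of the 52 tagged libraries 36 lay below the lowest untagged share, and the snoRNA reads of CRAC are not shown by these values to be bound by the tagged protein. Intervals cover counting error only. The mean share of eIF4A libraries was 1.41 ± 0.49% (SD, n = 3) at GE 30 s, 1.12 ± 0.43% (n = 4) at GE 16 min, 0.688 ± 0.17% (n = 4) at 42C, 1.30 ± 0.39% (n = 4) in mock and 0.909 ± 0.33% (n = 6) in control. That of eIF4B libraries was 1.02 ± 0.13% (n = 2) at GE 30 s, 1.02 ± 0.095% (n = 3) at GE 16 min, 1.00 ± 0.60% (n = 4) at 42C, 0.515 ± 0.031% (n = 2) at 42C CHX, 1.21 ± 0.53% (n = 3) in mock and 0.874 ± 0.17% (n = 4) in control. The mock shift thus gave a share near that of GE 30 s for eIF4A and above it for eIF4B, and the shares carry no test. For Ded1 the shares were 1.22 and 1.21% at GE 30 s, 2.52, 1.91 and 1.11% at GE 16 min, 0.772 to 2.13% at 42C and 4.05, 2.78 and 0.844% in control, and the spread within the Ded1 groups followed the library number.

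**Figure D4:**
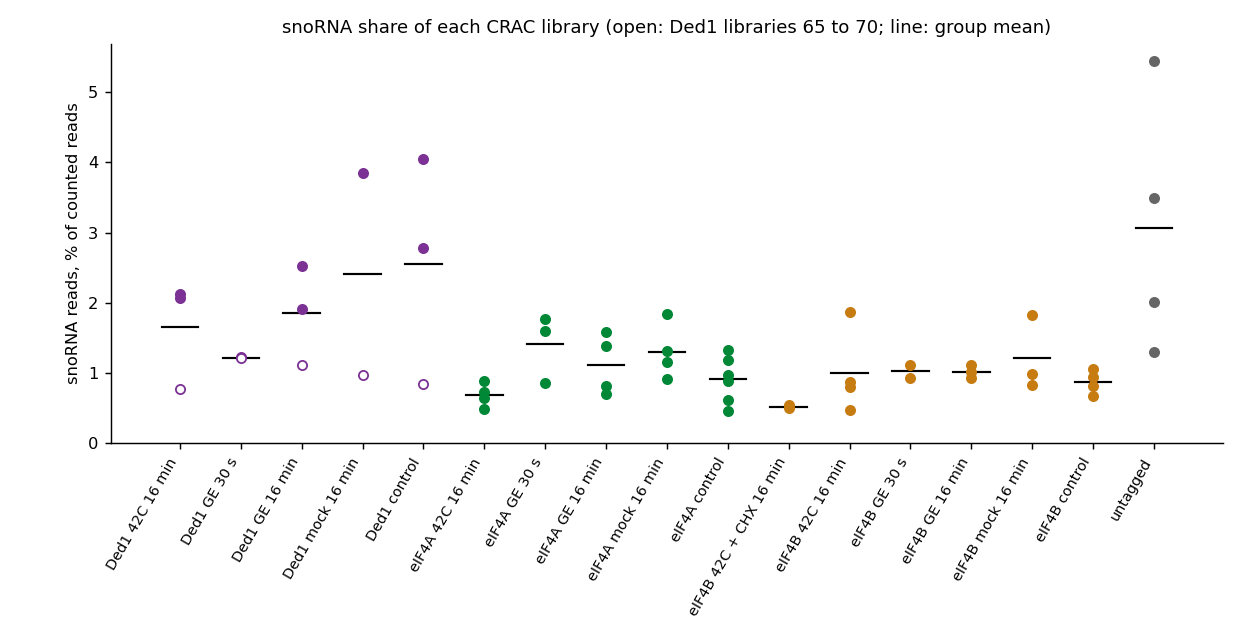
Share of counted reads taken by the snoRNAs in each of the 56 CRAC libraries, in percent, by protein and condition, with a point for each library and a line at the group mean. The tagged libraries (0.462 to 4.05%) lie mostly below the untagged ones (1.29 to 5.44%), and Ded1 libraries 57 to 63 (filled, 1.91 to 4.05%) stand above Ded1 libraries 65 to 70 (open, 0.772 to 1.22%).

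The members with the highest mean over the control libraries, each protein weighted equally, were snR10, snR30, snR41, snR17a, snR128, snR190, NME1, snR37, snR3 and snR8, and 10 members had a read in every tagged library. snR10 set the Ded1 libraries apart. It read 7643 to 19780.2 RPM in Ded1 libraries 57 to 63, where it made up 40.0 to 51.2% of all snoRNA reads, and 1244 to 3022 RPM in Ded1 libraries 65 to 70 (14.9 to 24.7%), against 116 to 1611 RPM in the 39 libraries of eIF4A and eIF4B. 10 of the 13 Ded1 libraries lay above the highest eIF4A or eIF4B library. In the untagged libraries snR10 had no read in library 07, which allows up to 8646 RPM, and 6896, 2579.8 and 2069.7 RPM in the others, from 322, 21 and 12 reads, within or above the range of Ded1 libraries 65 to 70.

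**Figure D5:**
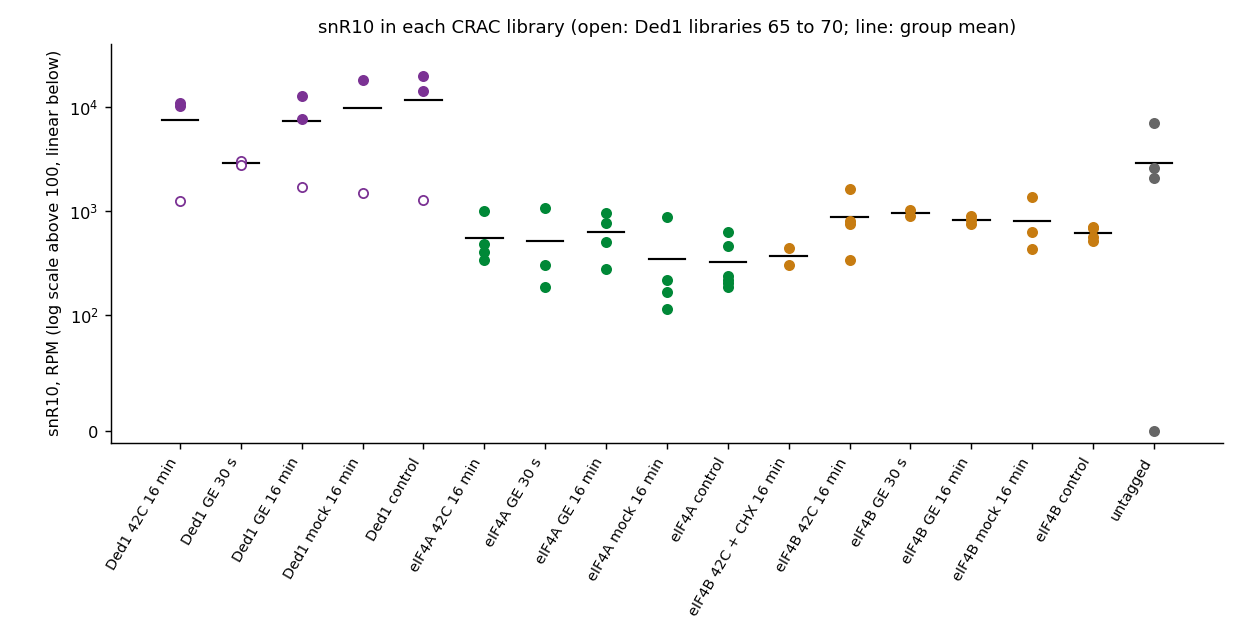
Reads per 1000000 counted reads of snR10 in each CRAC library, on an axis that is logarithmic above 100 and linear below, by protein and condition, with a line at the group mean. Ded1 libraries 57 to 63 (filled) lie highest at 7643 to 19780.2 RPM, and the 3 untagged libraries with a read lie at 2069.7 to 6896 RPM.

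Between the controls of the 3 proteins 2 (Ded1 over eIF4B), 6 (eIF4A over Ded1) and 1 (eIF4A over eIF4B) of the 69 members were called. The members' median standard errors were 1.04, 0.94 and 0.87, so a missing call does not show that the levels were alike. For Ded1 over eIF4B, 2 members were called higher, against 0.329% of all features in either direction. snR10 read 19780.2, 13968 and 1261 RPM in Ded1 control, against 702, 565, 517 and 681 in eIF4B control (log2 difference 4.24 ± 0.53, edgeR adjusted p = 2.69e-05), and NME1 read 1127, 1014 and 427, against 165, 139, 73.3 and 133 (log2 difference 2.75 ± 0.61, edgeR adjusted p = 0.0332). For eIF4A over Ded1, 6 were called lower, against 2.39% of all features: snR10 (-5.18 ± 0.47 (edgeR adjusted p = 7.12e-10)), snR81 (-6.99 ± 1.10 (edgeR adjusted p = 9.87e-05)), snR8 (-2.49 ± 0.58 (edgeR adjusted p = 0.0131)), snR9 (-3.85 ± 0.94 (edgeR adjusted p = 0.0184)), NME1 (-2.21 ± 0.53 (edgeR adjusted p = 0.016)) and snR161. Apart from NME1 these are H/ACA RNAs. With Ded1 control libraries 57 and 61 left out no member was called in either comparison, although the call of snR10 held without any single library. snR161 had no read in the 6 eIF4A control libraries and was at least 56.0-fold lower than in Ded1 control, from the mean over libraries and with 3 reads over the group as the floor. It was the single member called for eIF4A over eIF4B (at least 45.9-fold lower from the pooled reads, against 3.1% of all features called), where 80 of the 105 eIF4B reads came from library 08, and without that library none was called.

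Few snoRNAs were called under glucose withdrawal and heat shock in eIF4B libraries. The members' median standard errors were 1.01 at GE 30 s, 0.89 at GE 16 min and 0.84 at 42C. No member was called at GE 30 s, against 9.31% of all features, and 2 had an unadjusted p below 0.05 while DESeq2 called 1. At GE 16 min 2 were called (18.4% of all features), snR83 at 591, 291 and 220.1 RPM, against 58.8, 56.2, 106 and 136 in control (log2 difference 2.03 ± 0.72, edgeR adjusted p = 0.0444), and snR47, a C/D guide of both subunits, with 2, 34 and 48 reads at GE 16 min, at most 55.8 RPM, against 105 to 436 RPM in control (log2 difference -2.84 ± 0.99, edgeR adjusted p = 0.0421). Leaving out any of the 7 libraries left 1 or none. The mock libraries 25, 55 and 74 held 742077, 607664 and 1266064 counted reads. In them snR83 had 34, 357 and 187 reads and snR47 had 31, 42 and 218. Per counted read, the mock and GE 16 min values of both members overlapped, and GE over mock was not tested. With control and mock libraries together no member was called, against 4.73% of all features higher and 20.4% lower. At 42C 4 were called (23% of all features). snR52 had 47.3, 5.44, 108 and 117, against 514, 417, 136 and 345 (log2 difference -2.27 ± 0.63, edgeR adjusted p = 0.00702). snR3, an H/ACA guide of the large subunit, had 895, 1895, 218 and 76.9, against 294, 254, 157 and 117 (log2 difference 1.90 ± 0.64, edgeR adjusted p = 0.0268), and the groups overlapped, with library 56 highest and library 98 lowest. snR35, an H/ACA guide of the small subunit, and snR161 were called too (2.42 ± 0.83 (edgeR adjusted p = 0.0299) and -5.33 ± 1.99 (edgeR adjusted p = 0.0479)). Without library 23, 56, 26 or 71 the count at 42C was 2, 2, 2 and 1, and without library 98 it was 7. The call of snR52 held without any library of the 2 groups, and each of the others was lost without at least 4 of them. Neither mock over control (0.0302% of all features; 4 members at an unadjusted p below 0.05, DESeq2 none) nor 42C CHX over 42C (10.2%; 11 members, DESeq2 5) gave a call. The last comparison mixes sets of libraries. The CHX libraries 97 and 99 held 49.6 and 41.5% rRNA and 5.44 and 6.21% tRNA, and 42C library 98 held 52.2 and 12.9%, whereas 42C libraries 23, 56 and 75 held 13.4 to 15.9% rRNA and 50.1 to 54.9% tRNA. Within libraries 97 to 99 the 42C group has library 98 alone, so no count is given. The median log2 difference over all features was 1.11 there, against 1.13 with all libraries. With library 98 left out, 4 members were called lower.

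The median of all features was well below 0 in the eIF4B stress comparisons, -2.23 at GE 30 s, -1.66 at GE 16 min and -1.26 at 42C, whereas the members' medians were 0.04, 0.23 and 0.27. Other scalings moved that median nearer to 0 and changed the counts. With TMM 8, 7 and 7 members were called higher and none lower, against 4.08, 5.55 and 6.62% of all features higher (medians -0.52, -0.43 and -0.30). With reads outside rRNA and tRNA as library size 11, 13 and 13 were called higher and none lower, against 4.35 to 8.73% of all features higher (medians -0.28, -0.083 and -0.20). With reads outside rRNA and tRNA 42C CHX over 42C had 4 members lower, against 3.95% of all features lower. tRNA took 5.44 to 70.2% and rRNA 6.74 to 52.2% of the eIF4B libraries.

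For Ded1 5 members were called lower at GE 30 s, against 8.25% of all features in either direction. snR84 had 2.60 and 2.79 RPM at GE 30 s, against 123, 101 and 1.49 in control (log2 difference -4.79 ± 1.15, edgeR adjusted p = 0.0134). snR31 had 33.8 and 15.3, against 237, 187 and 23.8 (log2 difference -2.62 ± 0.74, edgeR adjusted p = 0.029). In both, control library 65 lay at or near the GE level, and controls 57 and 61 far above it. NME1 (-1.57 ± 0.48 (edgeR adjusted p = 0.0415)), snR11 (-2.20 ± 0.68 (edgeR adjusted p = 0.044)) and snR5 (-3.93 ± 1.16 (edgeR adjusted p = 0.0356)) were called as well. Both GE 30 s libraries belong to the set numbered 65 to 70, where library 65 is the only control. Within that set alone the log2 difference was 0.82 for snR84, 0.040 for snR31 and 0.12 for snR11. Without control 57 or 61 the count was 1 each, without library 69 or 70 it was 1 and 3, and without control 65 it was 8. With reads outside rRNA and tRNA as library size, 4 members were called higher and none lower, against 1.28% of all features higher and 2.81% lower.

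At 42C 5 members were called lower in Ded1 libraries, against 21.2% of all features. snR61 had 42.5, 47.2 and 6.88 RPM, against 156, 79.3 and 171 in control (log2 difference -2.05 ± 0.58, edgeR adjusted p = 0.0104). The U3 gene snR17a had 362, 386 and 289.8, against 1473, 904 and 393 (log2 difference -1.42 ± 0.44, edgeR adjusted p = 0.0198), and snR17b had 115, 108 and 173, against 549, 337 and 228 (log2 difference -1.50 ± 0.44, edgeR adjusted p = 0.0152). No 42C library reached the lowest control in these 3. snR47 and snR33 were lower as well (-1.38 ± 0.49 (edgeR adjusted p = 0.0426) and -1.48 ± 0.53 (edgeR adjusted p = 0.0445)). Under TMM none of the members was called, against 7.35% of all features higher and 11.8% lower. Without control 57 or 42C library 60, 63 or 68 the count was 1, 2, 3 and 2. Only the call of snR61 held without any library of the 2 groups. GE 16 min (4.46% of all features; 3 members at an unadjusted p below 0.05) and mock (0%; 1 member) gave no call in edgeR or DESeq2 over all Ded1 libraries. These comparisons pool libraries 57 to 63 with 65 to 70. Within 57 to 63, GE 16 min gave 1 member higher and 17 lower, against 2.46% of all features higher and 20.2% lower, and 42C gave 20 lower, against 25.1% lower. Within 65 to 70 control, GE 16 min and 42C have a single library each, so no count is given. The median over all features there was -0.23 at GE 16 min and -0.60 at 42C, against -0.95 and -0.68 within 57 to 63. With the set as a covariate GE 16 min gave 1 higher, against 2.15% of all features higher and 6.63% lower. At 42C it gave 7 lower, against 4.62% of all features higher and 19.3% lower.

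For eIF4A 66 members were tested. At 42C 2 were called lower, against 6.94% of all features. snR79, a C/D guide of the small subunit, had 6.17, 0, 0 and 0 RPM at 42C, against 24.7 (lowest), 159 (median) and 223 (highest) in control (log2 difference -5.96 ± 1.39, edgeR adjusted p = 0.00404). snR67 had no read in the 4 libraries at 42C and 434 reads in the 6 control libraries, of which library 52 had none and the others 18.8 to 102.8 RPM. From the mean over the control libraries it was at least 31.2-fold lower at 42C (floor of 3 reads over the group; edgeR adjusted p = 0.0372). The count was 1 without control 11, 76 or 80 or 42C library 54 or 83, and 4 without 42C library 15. GE 30 s (0.552% of all features; 2 members at an unadjusted p below 0.05), GE 16 min (0.178%; 6 members) and mock (0%; 2 members) gave no call in edgeR, and DESeq2 called 3 members at GE 16 min and none in the other pair. The call of snR79 held without any library of the 2 groups.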

How the data were processed

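snoRNA reads were analysed in 56 CRAC and 18 poly(A)-selected RNA-seq libraries of S. cerevisiae. For each library the authors deposited whole-number counts of reads per annotated feature, not normalized, and for CRAC also counts of unique cDNAs. For CRAC the authors sorted barcodes, trimmed with Flexbar, collapsed PCR duplicates, aligned with Novoalign to a genome without introns and counted sense reads with pyReadCounters. Reads with several equal positions were placed at random, which can exchange reads between paralogs. For RNA-seq they aligned to the joined S. cerevisiae and S. pombe genomes and the anti-sense read counts of each feature were used. In 3 of the libraries the reads were counted against version v5.6 of the feature annotation, unlike in the rest, and the effect of this was not tested. Shares carry exact (Clopper-Pearson) intervals.

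Counts were tested with edgeR 4.0.16 in R 4.3.3 (glmQLFit, glmQLFTest) after filterByExpr (minimum count 10, total 15), over all features, and adjusted by Benjamini-Hochberg at 0.05. Library size was all counted S. cerevisiae reads in CRAC and the summed S. pombe reads in RNA-seq. CRAC was fitted per protein, the controls of the 3 proteins together, and RNA-seq in a single fit of 8 groups, so that groups share an estimate of spread. A row with no gene name (at most 0.0181% of a library's reads) was left out. Differences are of the first group over the second, and the standard error is the log2 difference divided by the square root of F. DESeq2 1.42.0, TMM, other library sizes, no filter, covariates for library number or submission round, control with mock, unique cDNA counts, library sets fitted alone (also eIF4B libraries 97 to 99, added after seeing the data) and leaving out libraries were alternatives. The functions were tested on simulated data. Tables were made with Python 3.11.15 and pandas 2.3.3.

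Groups came from the labels. The labels of eIF4A library 51 conflict over its time, and it was used at GE 30 s. Classes and clusters came from textbook knowledge, and lengths and overlaps from RefSeq (assembly R64), whose build may differ from that of the files. Named were the processing and acetylation RNAs whatever their values, the 10 most read members per assay, and in each comparison all called members where 8 or fewer, otherwise the 4 with the smallest p in each direction, plus the 2 mRNAs of each protein list with the smallest p per direction in wt GE and 42C. Where members were named for a small p, a lack of overlap between their groups follows in part from that choice. A few members outside this rule (snR53, snR55, snR57, snR58, snR78 and earlier-named members in later comparisons) were chosen after their values were seen. The members, lists and alternatives were chosen with earlier results of these data known.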

Additional observations from a re-analysis of the deposited data

Results flagged for a closer look

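Among 98 groups of 4 to 6 libraries examined for the named members, 13 held a library far from the others by Dixon's test. Chance would give about 1 in 20 if the values were independent and normally distributed. These groups share libraries and include values from few reads, so that rate need not hold here. eIF4B library 56 at 42C, the shallowest tagged library with 183689 counted reads, read 517 RPM for snR17b, 506 RPM for snR128 and 1121 RPM for snR8, each the highest of its group of 4. eIF4A mock library 53 read 882 RPM for snR10, 610 RPM for snR190 and 2643 RPM for snR37, and eIF4A control library 52 read 833 RPM for snR17b and 598 RPM for snR45, these libraries holding 260727 and 242631 counted reads. eIF4A library 14 at GE 16 min read 1119 RPM for snR8, and eIF4B control library 08 read 211 RPM for snR4. In the untagged set, library 20 read 150 RPM for snR128 (7 reads) and 1135 RPM for snR4, and library 28 read 2334 RPM for snR8 (19 reads). No other untagged library had a read of snR128 or of snR8, so any read there would have been flagged.

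In RNA-seq the response to 42C was lower in deltaXrn1 than in wild type for 29 members by the interaction test of edgeR. Of all features, 17.4% were called lower and 9.47% higher in that test. The differences of the 4 members with the smallest p were -2.51 for snR86, -2.81 for snR67, -1.99 for snR51 and -1.80 for snR70. Each of the 2 deltaXrn1 libraries at 42C lay below each of the 3 wild-type libraries at 42C for these 4 members. They were picked by their p in these same libraries, so this separation adds no support.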

How the results depend on the processing

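No paired analysis was possible because every library has a number or letter of its own. The alternative without intron-encoded members was not run, since none is among the members analysed. Of the 161 counts of called members recomputed with all libraries kept or with a set of them left out, 110 stayed within 1.5 times the value above and 51 did not. TMM scaling gave 8 (eIF4B GE 30 s), 7 (GE 16 min), 7 (42C) and 1 (42C CHX) calls, 0 for Ded1 42C, 1 for Ded1 over eIF4B, 2 for eIF4A over Ded1, and in RNA-seq 35 for 42C CHX, 14 for the deltaXrn1 control and 29 for deltaXrn1 heat. Of all features it called, in that order, 4.08, 5.55, 6.62, 2.80, 7.35, 0.0156, 1.28, 30.4, 30.2 and 30.6% higher. The shares lower were 0.257, 2.22, 9.11, 3.67, 11.8, 0.626, 0.282, 30.6, 34.8 and 35.8%. Library size outside rRNA and tRNA gave 11, 13, 13 and 4 for the same eIF4B comparisons, 1 for Ded1 42C, 1 for eIF4A 42C, 2 for eIF4A over eIF4B and 2 for eIF4A over Ded1. Without the filter the counts were 1 (eIF4B GE 30 s), 3 (eIF4B 42C CHX), 13 (Ded1 GE 30 s), 1 (eIF4A GE 16 min), 4 (eIF4A 42C) and 4 (Ded1 over eIF4B). The shares of all features were 0.803, 5.43, 0.747, 0.298, 1.53 and 0.276% higher and 7.54, 2.60, 8.00, 0.273, 4.93 and 0.324% lower. DESeq2 gave 1 (eIF4B GE 30 s), 1 (eIF4B GE 16 min), 8 (eIF4B 42C), 5 (eIF4B 42C CHX), 11 (Ded1 GE 30 s), 3 (eIF4A GE 16 min), 5 (eIF4A 42C), 3 (eIF4A over eIF4B) and 5 (Ded1 over eIF4B). Of all features DESeq2 called, in that order, 2.4, 4.2, 4.3, 10.1, 1.1, 1.7, 1.7, 0.8 and 1.1% higher. Its shares lower were 33.1, 26.6, 25.3, 4.0, 19.1, 4.8, 17.1, 5.1 and 1.0%. A covariate for earlier or later library numbers gave 0, 7 and 1 for eIF4B GE 16 min, 42C and 42C CHX, 3 for Ded1 GE 30 s and 1 for Ded1 GE 16 min. The shares of all features were 2.71, 3.64, 4.85, 2.84 and 2.15% higher and 13.1, 19.9, 2.84, 16.8 and 6.63% lower. A covariate for the RNA-seq submission round gave 2 for the deltaSki2 control and 2 for the deltaSki2 heat difference. The shares of all features were 0.185 and 0.0247% higher and 0.0741 and 0.0247% lower. Control and mock together gave 0 (eIF4B GE 16 min), 8, 3 and 8 (Ded1 GE 30 s, GE 16 min and 42C) and 1 (eIF4A GE 16 min). The shares of all features were 4.73, 1.11, 2.14, 5.18 and 0.872% higher and 20.4, 12.6, 7.58, 22.7 and 0.516% lower. The fits of Ded1 library sets alone were chosen after seeing the data, as were the controls without Ded1 57 and 61. Libraries 57 to 63 alone gave 18 (GE 16 min) and 20 (42C), against 2.46 and 5.73% of all features higher and 20.2 and 25.1% lower. Libraries 65 to 70 alone hold a single control library, so their counts are left out. In Ded1 libraries 65 to 70 alone snR84 (0.82), snR31 (0.040) and snR11 (0.12) reversed at GE 30 s. Leaving out single libraries at wt GE gave snR17a -0.50 to 3.88, snR17b -0.17 to 3.30 and snR190 -1.22 to 3.73, and at wt 42C snR30 -0.38 to 1.27, each negative without library D or, for snR30, library I. snR30 was also reversed under TMM in deltaXrn1 heat (0.026). The cause was not tested in any of these.

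Leaving out single libraries gave 0 to 1 calls for eIF4B GE 16 min, 1 to 7 for eIF4B 42C, 0 to 4 for eIF4B 42C CHX, 1 to 8 for Ded1 GE 30 s, 0 to 1 for Ded1 GE 16 min, 1 to 5 for Ded1 42C, 1 to 4 for eIF4A 42C, 0 to 2 for eIF4A over eIF4B, 1 to 2 for Ded1 over eIF4B and 2 to 8 for eIF4A over Ded1. In RNA-seq the ranges were 30 to 40 at GE, 46 to 54 for wt 42C, 54 to 58 for 42C CHX, 19 to 27 for the deltaXrn1 control, 0 to 3 for the deltaSki2 control, 16 to 31 and 0 to 9 for deltaXrn1 and deltaSki2 at 42C over wt at 42C, 42 to 50 and 29 to 34 for their own heat responses, and 23 to 36 and 0 to 5 for the differences from the wt response. The shares of all features called without a single library are not given here, so these ranges have no background beside them. Of the single members named, 931 refits stayed on their side of the threshold, 182 of the same sign lost the call and 8 reversed. Depth limits CRAC: as few as 30 members had a read in a tagged library, and the untagged libraries hold too few reads to give a level for most members.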
